A study of Mus musculus with 18 samples.

Results

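The genes described here are 10 contractile genes of smooth muscle and myofibroblasts, taken as a list of symbols and matched to Ensembl identifiers: Acta2, Actg2, Tagln, Myl9, Cnn1, Cnn2, Tpm1, Tpm2, Cald1 and Mylk. All 10 were found among the 47643 genes of the count table, and all 10 were among the 14309 genes tested. RNA came from MPC3, a mouse prostate cancer cell line, in 18 libraries, 6 in each of 3 groups. The control libraries are titled plko in the labels, which do not describe that vector, and the knockdown libraries carry 1 of 2 short hairpin RNAs against Rnf185, shRNF185.1 or shRNF185.3. Cells process such a hairpin into a small RNA that directs breakdown of the matching transcript. All groups are the same single cell line, and no other allele or agent is given in the labels. The labels place replicate numbers 1 and 2 in batch 1, 3 and 4 in batch 2, and 5 and 6 in batch 3. They do not say whether the libraries of a group came from separately infected cultures. The p-values therefore measure the spread between these libraries, which may be technical. This spread is what remained after the deposited batch adjustment. The fit had no term for batch, so the p-values may be too small.

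Contraction in smooth muscle cells and myofibroblasts runs on actin filaments and myosin. Acta2 and Actg2 encode the alpha and gamma smooth muscle actins that make up the filaments. Myosin light chain kinase, encoded by Mylk, phosphorylates the regulatory light chain encoded by Myl9 and so switches on the motor. Tropomyosins (Tpm1, Tpm2), caldesmon (Cald1), calponins (Cnn1, Cnn2) and transgelin (Tagln, also called SM22) bind along the filament and restrain or stabilise it. Many of these genes are textbook targets of serum response factor (SRF), which binds a DNA element called the CArG box and works with the coactivators myocardin and the myocardin-related factors. Alpha smooth muscle actin is the standard marker of myofibroblasts, which are activated fibroblasts. Tumour cells of epithelial origin can also make contractile proteins when they take on mesenchymal traits.

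The promoters of 4 of these genes are shown. Acta2, Myl9 and Cnn1 had the 3 highest fold changes with shRNF185.3, and Cnn2 is a relative of Cnn1 with a high level in control. The promoters of Acta2, Myl9 and Cnn2 hold the pattern described below, with at most 1 mismatch, and that of Cnn1 does not. Each promoter shown is the 250 bases before the RefSeq start of the gene (GRCm38.p6), 5′ to 3′ on the strand of the gene. Capitals mark matches to the CArG box with at most 1 mismatch. The motif reads the same on both strands, so a single search covers both.
Acta2, chr19:34255374-34255623, minus strand: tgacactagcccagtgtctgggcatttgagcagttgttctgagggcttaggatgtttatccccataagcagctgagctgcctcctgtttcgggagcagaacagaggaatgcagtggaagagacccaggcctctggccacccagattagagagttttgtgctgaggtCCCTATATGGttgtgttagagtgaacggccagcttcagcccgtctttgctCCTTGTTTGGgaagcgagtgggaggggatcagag
Myl9, chr2:156775214-156775463, plus strand: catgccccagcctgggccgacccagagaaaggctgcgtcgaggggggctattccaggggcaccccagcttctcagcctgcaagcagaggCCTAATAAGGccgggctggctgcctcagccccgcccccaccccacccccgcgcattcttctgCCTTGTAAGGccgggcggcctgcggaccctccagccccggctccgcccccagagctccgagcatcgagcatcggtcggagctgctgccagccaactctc
Cnn1, chr9:22099003-22099252, plus strand: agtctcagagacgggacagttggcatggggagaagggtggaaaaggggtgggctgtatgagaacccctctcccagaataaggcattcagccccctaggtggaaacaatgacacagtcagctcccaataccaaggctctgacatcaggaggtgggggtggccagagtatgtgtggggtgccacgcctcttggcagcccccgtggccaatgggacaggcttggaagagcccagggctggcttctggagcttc
Cnn2, chr10:79988350-79988599, plus strand: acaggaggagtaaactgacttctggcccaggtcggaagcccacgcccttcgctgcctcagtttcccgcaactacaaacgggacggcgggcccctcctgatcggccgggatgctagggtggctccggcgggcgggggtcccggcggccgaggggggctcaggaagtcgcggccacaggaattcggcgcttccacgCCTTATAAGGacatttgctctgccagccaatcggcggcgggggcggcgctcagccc

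The Acta2 window holds 2 matches with 1 mismatch each, which begin at -84 and -34 relative to the start. The Myl9 window holds an exact match at -161 and a match with 1 mismatch at -99. The Cnn2 window holds an exact match at -56, and the Cnn1 window holds none, which says only that the letters are not in this window. Of 32851 promoter windows of this length, 1.47% hold an exact match, 18.6% hold a match with at most 1 mismatch, and 2.96% hold 2 or more of the latter. RefSeq windows were matched for 8 of the 10 genes. Among those not printed, Tpm1, which passed the test with neither hairpin, holds 2 matches with 1 mismatch each, as many as Acta2. Cald1 holds 1 such match in 1 of its 2 windows, and Tpm2 and Mylk, which rose with shRNF185.3, hold none. Matches thus occur in members that rose and in members that were not called. A match describes the sequence and is not evidence of binding.

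The targeted gene was checked first. Rnf185, which encodes a ubiquitin ligase of the endoplasmic reticulum membrane, was between 33.6 and 38.4 CPM in control and between 5.19 and 6.80 CPM in the 12 hairpin libraries, so every library matched its label. CPM here are the authors' deposited values, counts scaled to an effective library size. Library totals ran from 22027395 to 43379662 counts. Over all genes, 28.9% differed from control with shRNF185.1 and 27.3% with shRNF185.3 at an edgeR adjusted p under 0.05.

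The labelled cell type was set against fixed marker lists. Of 6 epithelial markers, 4 were tested (Krt8, Krt18, Krt14 and Cdh1), and 4 fell with shRNF185.1 and 3 with shRNF185.3, while Epcam had at most 7 counts and Krt5 at most 3 in any library. The summed epithelial level was 1460.2 to 1765 CPM in control, 904 to 1175 CPM with shRNF185.1 and 973 to 1041 CPM with shRNF185.3. Some fibroblast markers were also present: Pdgfrb, a receptor of platelet-derived growth factor, was at 157 ± 18.1 CPM in control (SD, n = 6), and Pdgfra was at 89.6 ± 11.4 CPM. The collagen genes Col1a2 and Col1a1 were at 374 ± 28.8 and 80.0 ± 25.5 CPM in control, and Dcn was at 24.9 ± 7.75 CPM. Thy1 and Fap had at most 2 counts in any library, and Lum at most 16. The summed level of the 8 fibroblast markers was 648 to 776 CPM in control, 599 to 945 CPM with shRNF185.1 and 1049.5 to 1551 CPM with shRNF185.3. Of the 5 tested, 2 rose (Pdgfrb and Col1a1) and 2 fell (Dcn and Col1a2) with shRNF185.1. With shRNF185.3, 4 rose (Pdgfra, Pdgfrb, Col1a1 and Col1a2) and Dcn was not called. Col1a1 and Col1a2 were then at 365 ± 126 and 545 ± 76.5 CPM. Of 6 defining genes of differentiated smooth muscle, 3 were tested (Smtn, Lmod1 and Synpo2). With shRNF185.1 Lmod1 rose and Synpo2 fell, and with shRNF185.3 only Lmod1 was called, as a rise. The genes not tested were near 0. Myh11, the smooth muscle myosin heavy chain, had at most 8 counts in any library, the intermediate filament gene Des at most 4, and Myocd, the gene of myocardin, at most 1. The summed level of all 6 smooth muscle markers, most of it Smtn (98.5 ± 24.9 CPM in control), was 73.3 to 141 CPM in control, 89.3 to 148 CPM with shRNF185.1 and 107 to 151 CPM with shRNF185.3. Whether the shifts in the epithelial and fibroblast lists have a part in the results below was not tested. In bulk RNA, a change in the number of cells that express a gene and a change in RNA per cell cannot be told apart.

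The level per length differed widely between these genes. Length here is that of all annotated exons of a gene together. It can exceed the length of the transcripts expressed, which lowers the value of genes with many annotated exons. In control, Tpm1 stood highest at 157 ± 16.1 CPM per kb of exonic length (SD, n = 6). Cnn2 followed at 75.8 ± 11.8 and Cald1 at 58.2 ± 5.54, and the ranges of these 2 overlapped, whereas Tpm1 lay above both in every library. Tpm2 was at 13.6 ± 2.81 CPM per kb and Acta2 at 7.81 ± 6.79, with overlapping ranges. The other 5 were low: Mylk was at 1.57 ± 0.304 CPM per kb, Myl9 at 1.13 ± 0.505, Tagln at 0.698 ± 0.254, Actg2 at 0.619 ± 0.597 and Cnn1 at 0.344 ± 0.202. Each of these overlapped its neighbour in the order. With shRNF185.3, Acta2 rose to 30.8 ± 13.7 CPM per kb and moved from place 5 to place 4, above Tpm2 at 19.1 ± 3.07, though the ranges still overlapped. Cnn1 moved from place 10 in control to place 8 with each hairpin. Tpm1, Cnn2 and Cald1, the 3 most abundant, are genes that non-muscle cells also express. As background, the non-muscle actins encoded by Actb and Actg1 were at 2487 ± 257 and 2933 ± 318 CPM in control.

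**Figure D1:**
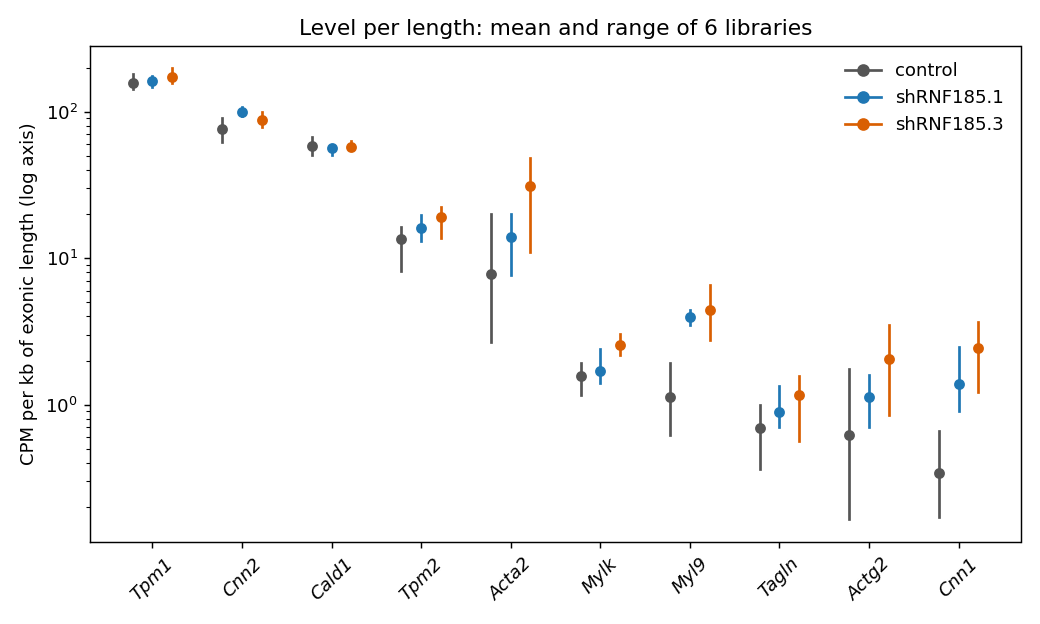
Mean (point) and range (line) of 6 libraries per group, in CPM per kb of exonic length on a log axis, with genes ordered by their control mean. Tpm1 is highest and Cnn1 lowest in control. Every gene except Cald1 has a higher mean with both hairpins, though the ranges of several overlap those of control.

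Of the 10 genes, 3 rose with shRNF185.1 (Myl9, Cnn1 and Cnn2), 7 rose with shRNF185.3 (Acta2, Actg2, Tagln, Myl9, Cnn1, Tpm2 and Mylk), and 0 fell with either, by edgeR's quasi-likelihood test with Benjamini-Hochberg adjustment over all genes. Over all genes tested, shRNF185.1 had 14.6% called higher and 14.3% lower, while shRNF185.3 had 14.2% and 13.1%. At an unadjusted p under 0.05 shRNF185.1 gave 3 higher genes and shRNF185.3 gave 8, with 0 lower for both. Shares of all genes at an unadjusted p are not given, for these counts or for those below. DESeq2 called 3 and 8 higher, limma 3 and 7, and neither called any lower. The median log2 fold change of the 10 genes was 0.37 with shRNF185.1 and 0.73 with shRNF185.3, against a median of -0.02 over all genes in both comparisons. Both comparisons use the same 6 control libraries. Myl9 and Cnn1 rose with both hairpins, and 8.99% of all genes were called higher with both. Leaving out batch 1 lowered the count with shRNF185.3 to 3, leaving out batch 2 lowered it to 4, and leaving out batch 3 raised the count with shRNF185.1 to 5. Calls over all genes with shRNF185.3 went from 3906 to 2120 without batch 1 and to 3849 without batch 2. With shRNF185.1 they went from 4141 to 2926 without batch 3. The mean of both hairpins was called higher than control in 7 of the 10 genes (Acta2, Actg2, Myl9, Cnn1, Cnn2, Tpm2 and Mylk). Tagln was not called for the mean (edgeR adjusted p 0.0696). Of all genes, 16.1% were called higher, 16.8% lower and 32.9% in either direction. The count of 7 fell to 3 without batch 1 and 4 without batch 2, while calls over all genes went from 4701 to 2672 and 5411.

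**Figure D2:**
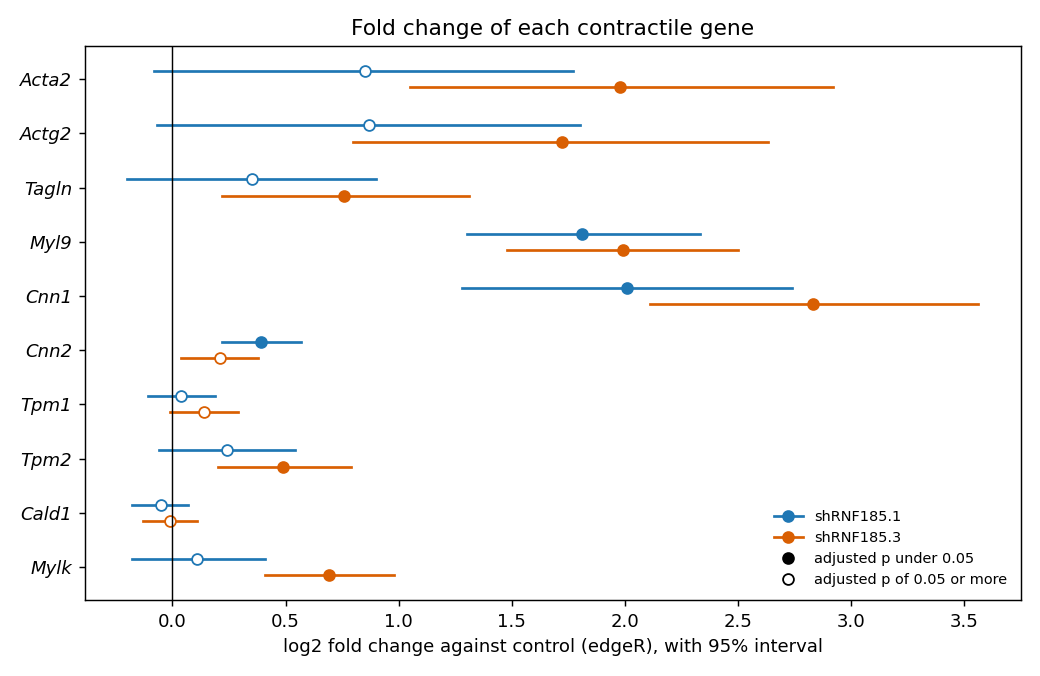
The edgeR log2 fold change of each gene against control (point) with its 95% interval (line), for shRNF185.1 and shRNF185.3; filled points have an adjusted p under 0.05. Cnn1 and Myl9 lie farthest to the right with both hairpins, and Cald1 and Tpm1 lie near 0.

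Among the filament proteins, the smooth muscle actins were examined first. Acta2 (ENSMUSG00000035783, chromosome 19, 34241090 to 34255590, minus strand) ranged from 5.84 to 44.2 CPM in control with a median of 11.02. It ranged from 16.9 to 44.0 CPM with shRNF185.1 (median 32.5) and from 24.2 to 106 CPM with shRNF185.3 (median 67.8). The highest control library, replicate 6, lay above all 6 shRNF185.1 libraries and above 1 shRNF185.3 library, so the groups overlapped. Against control, shRNF185.3 raised it 3.96-fold, by 1.98 on the log2 scale (SE 0.45, edgeR adjusted p 0.00256). With shRNF185.1 it was 0.85 (SE 0.44, adjusted p 0.164), with a 95% interval from -0.08 to 1.77. Without control replicate 6 the value with shRNF185.1 was 1.40 (adjusted p 0.0126). The call with shRNF185.3 was lost without batch 1, where the value stayed at 1.95 (adjusted p 0.0501). It was also lost without batch 2, where the value fell to 1.20 (adjusted p 0.0757).

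Actg2 (ENSMUSG00000059430, chromosome 6, 83512905 to 83536265, minus strand) was far scarcer, at 9 to 87 counts per control library. Its level ran from 0.257 to 2.73 CPM in control (median 0.604), from 1.104 to 2.495 with shRNF185.1 (median 1.79) and from 1.33 to 5.45 with shRNF185.3 (median 3.20). Control replicate 6 was again the highest control and lay above all 6 shRNF185.1 libraries. Its log2 fold change with shRNF185.3 was 1.72 (SE 0.44, adjusted p 0.00637), and that with shRNF185.1 was 0.87 (SE 0.45, adjusted p 0.16). Without control replicate 6 the latter was 1.55 (adjusted p 0.00539), and without batch 1 or batch 2 the former was 1.60 and 0.96 (adjusted p 0.0976 and 0.138). There were 3.73 to 8.68 Actg2 counts per 100 Acta2 counts in the 18 libraries, a narrow band beside the range of either gene. No 75-base window of either gene occurs in the other, and the closest pair differs at 5 positions. Of the Actg2 windows, 0.933% match another actin gene with at most 3 mismatches, and of the Acta2 windows 0.141%.

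The 2 tropomyosins, which cover the actin groove, differed. Tpm1 (ENSMUSG00000032366, chromosome 9, 67022590 to 67049406, minus strand) was at 929 to 1163 CPM in control, 952 to 1135 with shRNF185.1 and 1018 to 1278 with shRNF185.3. These ranges overlapped. The log2 fold changes were 0.04 (95% interval -0.11 to 0.19, adjusted p 0.688) and 0.14 (95% interval -0.01 to 0.29, adjusted p 0.152). Tpm2 (ENSMUSG00000028464, chromosome 4, 43514711 to 43523765, minus strand) was at 23.9 to 47.6 CPM in control (median 41.7), 38.2 to 57.0 with shRNF185.1 (median 46.4) and 40.0 to 64.7 with shRNF185.3 (median 56.0). Of the shRNF185.3 libraries, 5 lay above the highest control. The rise with shRNF185.3 was 0.49 on the log2 scale (SE 0.14, adjusted p 0.0139). It did not pass the threshold without batch 1, at a larger value (0.57, adjusted p 0.0527), or without batch 3, at a smaller one (0.30, adjusted p 0.119). With shRNF185.1 the value was 0.24 (SE 0.14, adjusted p 0.221).

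The myosin genes came next. Myl9 (ENSMUSG00000067818, chromosome 2, 156775420 to 156781658, plus strand) encodes the regulatory light chain. It was at 0.724 to 2.23 CPM in control (median 1.14), 4.09 to 5.15 CPM with shRNF185.1 (median 4.63) and 3.20 to 7.65 CPM with shRNF185.3 (median 4.84). Every hairpin library lay above every control. The rise with shRNF185.1 was 3.52-fold, or 1.81 on the log2 scale (SE 0.24, adjusted p 1.83e-05). That with shRNF185.3 was 3.97-fold, or 1.99 (SE 0.24, adjusted p 6.43e-06). Its non-muscle relative Myl12a was at 576 ± 39.7 CPM in control, with log2 fold changes of 0.03 and 0.08 (adjusted p 0.647 and 0.23). No 75-base window of Myl9 comes within 3 mismatches of Myl12a or Myl12b.

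Mylk (ENSMUSG00000022836, chromosome 16, 34745210 to 35002420, plus strand), the kinase of that light chain, behaved differently with the hairpins. It was at 13.02 to 21.7 CPM in control (median 17.97), 15.8 to 26.8 with shRNF185.1 (median 17.3) and 24.5 to 34.3 with shRNF185.3 (median 28.1). All 6 shRNF185.3 libraries lay above all controls, and those of shRNF185.1 overlapped the controls. With shRNF185.3, 3 of the 10 genes (Myl9, Cnn1 and Mylk) lay wholly above control and 0 below, as did 7.6% and 5.7% of all genes. With shRNF185.1, 3 (Myl9, Cnn1 and Cnn2) lay above and 0 below, against 7.02% and 5.77%. For Mylk the rise with shRNF185.3 was 0.69 (SE 0.14, adjusted p 0.000903), and the value with shRNF185.1 was 0.11 (95% interval -0.18 to 0.41, adjusted p 0.577). Mylk has 11263 exonic bases, and their overlaps with exons of 2 opposite-strand genes sum to 772 bases, where a base under both counts for each. The use of strand in counting is not given in the sources used here.

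The calponins bind actin and slow the myosin motor. Cnn1 (ENSMUSG00000001349, chromosome 9, 22099216 to 22109630, plus strand), the smooth muscle form, was at 0.467 to 1.82 CPM in control (median 0.786), with 14 to 58 counts per library. It was at 2.47 to 6.75 CPM with shRNF185.1 (median 3.36) and 3.32 to 10.04 CPM with shRNF185.3 (median 6.31). No hairpin library overlapped the controls. Its log2 fold changes were the largest of the 10 genes with each hairpin, at 2.01 (SE 0.35, adjusted p 0.000238) and 2.83 (SE 0.34, adjusted p 5.98e-06), or 4.02-fold and 7.13-fold.

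Cnn2 (ENSMUSG00000004665, chromosome 10, 79988584 to 79996062, plus strand), the broadly expressed form, was at 152 to 222 CPM in control (median 183), 228 to 266 with shRNF185.1 (median 245) and 194 to 243 with shRNF185.3 (median 213). Each shRNF185.1 library lay above every control, while the shRNF185.3 libraries overlapped them. The rise with shRNF185.1 was 0.39 (SE 0.08, adjusted p 0.00122), a 1.31-fold change. With shRNF185.3 it was 0.21 (SE 0.08, adjusted p 0.0623), which did not pass. Of 12 libraries left out singly, 3 brought it under the threshold: control replicate 2 (0.0257), control replicate 6 (0.0168) and shRNF185.3 replicate 1 (0.0485). The highest adjusted p of these 12 fits was 0.138. The rise passed with library size alone as the scaling (0.0396), with DESeq2 (0.0465) and in the fit blocked on replicate number (0.0438). The other alternatives, among them limma and the batch covariate, did not call it. The third calponin, Cnn3, was at 406 ± 11.1 CPM in control, with log2 fold changes of 0.04 and 0.06 (adjusted p 0.511 and 0.275).

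Tagln (ENSMUSG00000032085, chromosome 9, 45929619 to 45936058, minus strand), an early marker of smooth muscle, was scarce in all groups. It was at 0.724 to 1.98 CPM in control (median 1.43), 1.39 to 2.66 with shRNF185.1 (median 1.55) and 1.12 to 3.13 with shRNF185.3 (median 2.29), and all groups overlapped. With shRNF185.3 the rise was 0.76 on the log2 scale (SE 0.26, adjusted p 0.0347), and with shRNF185.1 the value was 0.35 (SE 0.26, adjusted p 0.335). The call with shRNF185.3 was lost when any of 7 single libraries was left out (control replicates 1, 4 and 5 and shRNF185.3 replicates 1, 2, 3 and 6), with adjusted p up to 0.0803. The call was lost too without batch 1 (0.67, adjusted p 0.219) and without batch 2 (0.53, adjusted p 0.232). It was also lost with the batch as a covariate (0.0575), with no filter on low counts (0.0539) and with only the compared groups in the fit (0.0512). Tagln has 1988 exonic bases, and their overlaps with exons of 2 opposite-strand genes, Pcsk7 and Gm48529, sum to 1349 bases. A base under both genes counts for each in this sum. Pcsk7 was at 35.4 ± 2.72, 37.5 ± 1.54 and 36.1 ± 2.23 CPM in control, shRNF185.1 and shRNF185.3. Reads of Tagln and of these genes cannot be told apart there unless strand was used in counting. The relative Tagln2, a transgelin of many tissues, was at 532 ± 54.0 CPM in control, with log2 fold changes of 0.04 and -0.07 (adjusted p 0.689 and 0.415).

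Cald1 (ENSMUSG00000029761, chromosome 6, 34598500 to 34775473, plus strand), which encodes an actin-binding brake on the motor, did not pass the test with either hairpin. It was at 612 to 807 CPM in control, 612 to 713 with shRNF185.1 and 657 to 754 with shRNF185.3. The log2 fold changes were -0.05 (95% interval -0.18 to 0.07, adjusted p 0.537) and -0.01 (95% interval -0.13 to 0.11, adjusted p 0.911), and the sign of the latter turned with library size alone (0.01). The interval with shRNF185.3 leaves out changes of more than 0.13 in either direction on the log2 scale.

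**Figure D3:**
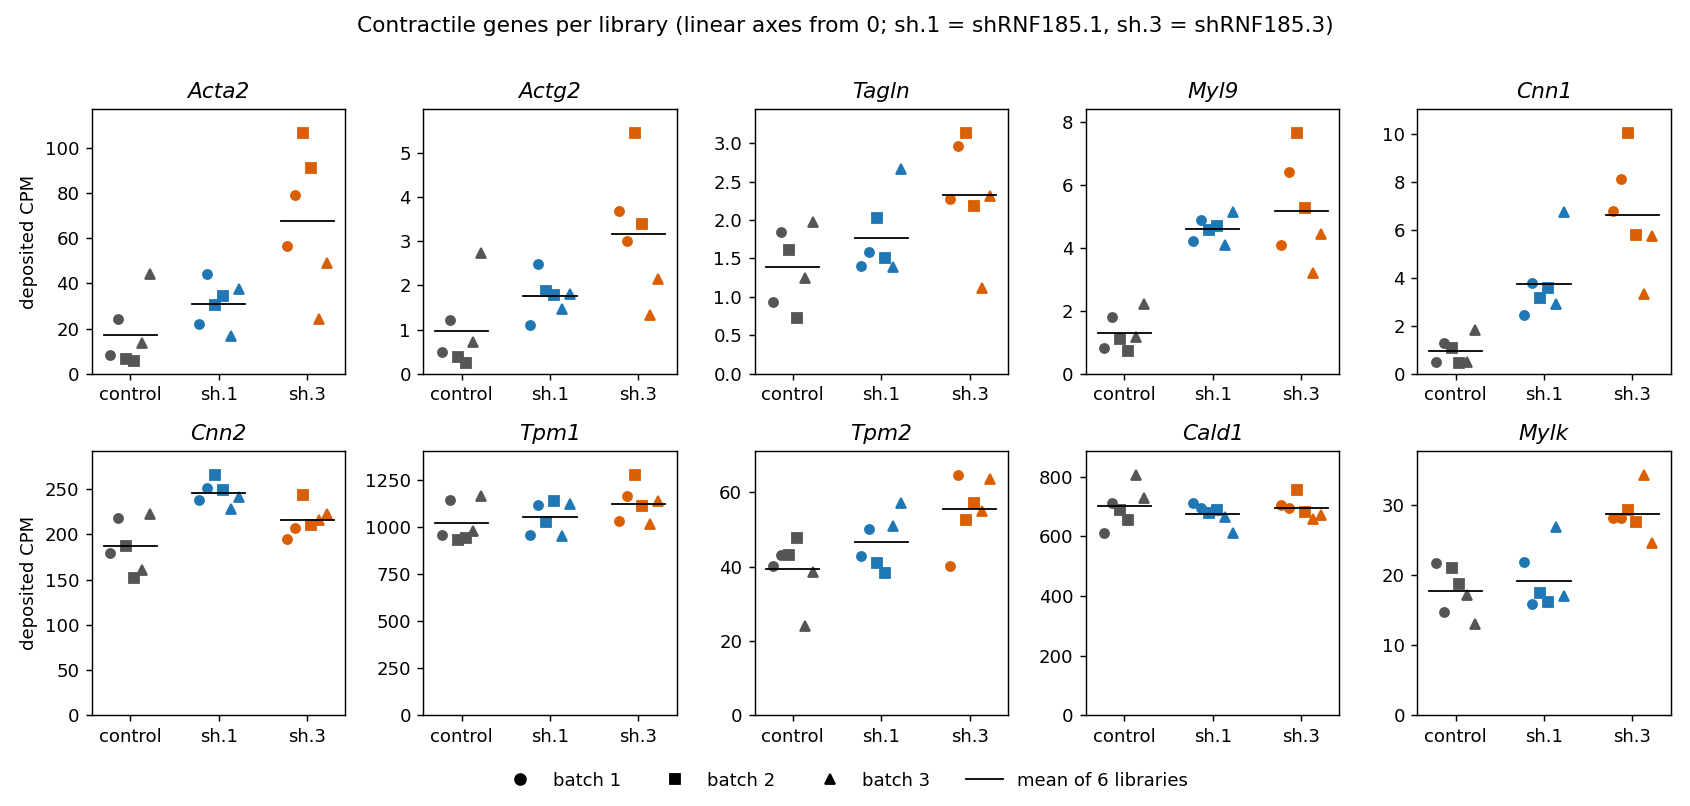
Deposited CPM of each gene in all 18 libraries, on linear axes from 0, by group; symbols give the batch and the line the mean of 6 libraries. All hairpin libraries lie above all controls for Myl9 and Cnn1, and 1 control library of batch 3 is far above the others for Acta2 and Actg2.

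The hairpins were compared with each other because they reached the same Rnf185 level. Of the 10 genes, 1 differed: Mylk was higher with shRNF185.3 by 0.58 on the log2 scale (SE 0.14, adjusted p 0.00706), where 7.72% of all genes were called higher, 6.94% lower and 14.7% in either direction. For 0 of the 10 genes were the hairpin groups free of overlap, which held for 4.45% of all genes higher and 3.79% lower. This call was lost without batch 1 (0.58, adjusted p 0.0875) and without batch 2 (0.49, adjusted p 0.106). Cnn1 was higher with shRNF185.3 by 0.82 (95% interval 0.18 to 1.46, adjusted p 0.0801) and Acta2 by 1.14 (95% interval 0.23 to 2.05, adjusted p 0.0899), which did not pass the threshold. With the replicate number as a block Cnn1 did (0.85, adjusted p 0.0324). It also did with limma (0.67, adjusted p 0.0464), without shRNF185.1 replicate 6 (adjusted p 0.0236) and without shRNF185.3 replicate 5 (adjusted p 0.0381), and Acta2 did without shRNF185.3 replicate 5 (adjusted p 0.0455). Without batch 3 both passed, Cnn1 at 1.25 (adjusted p 0.00722) and Acta2 at 1.35 (adjusted p 0.033). With only the hairpin libraries in the fit, Cnn1 (adjusted p 0.0455), Acta2 (0.0202) and Cnn2 (-0.18, adjusted p 0.0349) passed as well. For Myl9 the difference was 0.17, with a 95% interval from -0.29 to 0.64 (adjusted p 0.726). At an unadjusted p under 0.05, 3 genes were higher and 1, Cnn2, was lower with shRNF185.3. A gene called with 1 hairpin and not the other, such as Tpm2 (difference 0.25, adjusted p 0.284) or Tagln (0.41, adjusted p 0.356), is therefore not shown to differ between them.

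Within batches the actin genes varied most. With shRNF185.3, the Acta2 log2 fold change was 2.06 in batch 1, 4.0 in batch 2 and 0.34 in batch 3, and that of Actg2 was 1.97, 3.84 and 0.01. With shRNF185.1 they were 1.02, 2.40 and -0.10 for Acta2, and 1.09, 2.57 and -0.09 for Actg2. A test of whether the effect differed between batches, chosen after these values were seen, gave edgeR adjusted p-values of 0.0473 for Acta2 and 0.0411 for Actg2 with shRNF185.3, and 0.122 and 0.111 with shRNF185.1. Of all genes, 5.18% passed this test with shRNF185.3 and 14.3% with shRNF185.1, and of the 10 genes 2 and 0 did. At an unadjusted p under 0.05, Acta2, Actg2 and Myl9 passed with shRNF185.3, and Acta2, Actg2, Tpm2 and Cald1 with shRNF185.1. The shares of all genes at this unadjusted threshold are not given here, so these names are not a result about the 10 genes. In batch 3 control the Acta2 libraries were at 13.5 and 44.2 CPM, against 6.53 and 5.84 CPM in batch 2, while the shRNF185.3 libraries were at 24.2 and 49.1 CPM in batch 3 against 106 and 91.0 CPM in batch 2. The control libraries were higher and the shRNF185.3 libraries lower in batch 3 than in batch 2. These values were already adjusted for batch, and whether the adjustment shaped such opposite movements was not tested. Myl9 and Cnn1 rose within every batch with both hairpins: Myl9 by 1.79, 2.37 and 1.43 with shRNF185.1 and by 2.0, 2.85 and 1.16 with shRNF185.3, and Cnn1 by 1.82, 2.21 and 2.02, and by 3.07, 3.45 and 1.95. For Tpm2 and Mylk the highest value with each hairpin was in batch 3, where Tpm2 was at 0.78 and 0.92 (shRNF185.1, shRNF185.3) and Mylk at 0.54 and 0.97. Tagln ranged over the batches from 0.12 to 0.65 (shRNF185.1) and 0.09 to 1.23 (shRNF185.3), and Cnn2 from 0.29 to 0.60 and 0.02 to 0.42. Cald1 was at -0.27 and -0.21 in batch 3 and between 0.02 and 0.09 in the other batches. Between the hairpins, Mylk differed by 0.58, 0.76 and 0.42 in batches 1, 2 and 3, and Cnn1 by 1.25, 1.24 and -0.08.

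**Figure D4:**
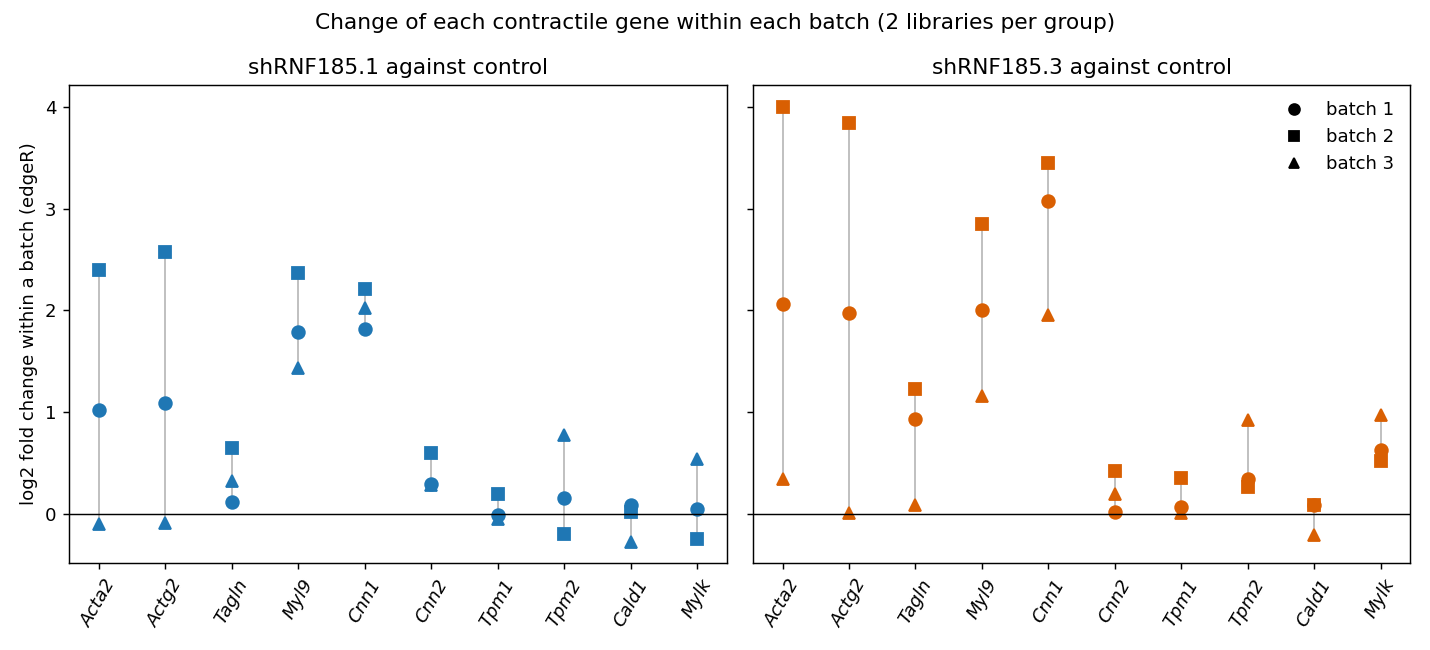
The edgeR log2 fold change against control within each batch (2 libraries per group), with a symbol per batch and a panel per hairpin. Acta2 and Actg2 spread from about no change in batch 3 to their highest value in batch 2, while Myl9 and Cnn1 lie above 0 in every batch.

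Within groups some of the members varied together and others did not. After each group's mean was removed, log2 CPM of Acta2 correlated over the 18 libraries with Actg2 (r 0.95), Myl9 (0.91), Tpm1 (0.87), Tagln (0.75) and Cnn1 (0.75), more weakly with Cnn2 (0.63) and Cald1 (0.42), and ran against Mylk (-0.78). Tpm2 stood apart, with r of -0.10 with Acta2, 0.02 with Myl9 and -0.66 with Cald1. These values describe libraries that share batches and a batch adjustment, and carry no test. The replicate numbers bear on them: in 9 pairs of libraries of the same group and batch, Mylk was higher in the odd-numbered library in 9, by a median of 0.40 on the log2 scale, although 1 pair was at 28.12 and 28.07 CPM. Acta2 was higher in the even-numbered library in all pairs except 2, with a median log2 difference (odd minus even) of -1.0, and Tpm1 in all except 1, with -0.17. Of all genes, 5.36% were higher in the odd-numbered library of every pair and 5.06% in the even-numbered. What distinguishes odd from even numbers is not given in the sources used here. By a fixed rule, the 5 genes outside the lists most like Acta2 in log2 CPM over the 18 libraries, among 9606 genes compared, were Bri3bp (r 0.922), Zwint (0.899), 1110004F10Rik (0.895), Mllt11 (0.889) and Pdrg1 (0.888). Within groups their r with Acta2 ranged from 0.731 to 0.866, and their own changes were small, with log2 fold changes of 0.25 to 0.45 with shRNF185.3.

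The wider contractile machinery was followed in lists of known genes. The first list shares Myh11, Smtn, Des, Lmod1 and Synpo2 with the smooth muscle markers above. Of 12 other smooth muscle genes, 7 were tested, and 4 rose and 1 fell with shRNF185.1, while 3 rose and 0 fell with shRNF185.3 (DESeq2 and limma also gave 3 and 0). Over all genes, the shares called were 14.6% higher and 14.3% lower for shRNF185.1, against 14.2% and 13.1% for shRNF185.3, for this list and those below. Lmod1, leiomodin, which nucleates actin filaments in smooth muscle, went from 0.338 ± 0.145 CPM in control to 0.694 ± 0.149 and 1.40 ± 0.258 CPM (SD, n = 6 each), with log2 fold changes of 1.03 (adjusted p 0.00304) and 2.03 (adjusted p 2.23e-06). Csrp1, a LIM protein of smooth muscle, rose by 0.27 and 0.25 (adjusted p 0.00552 and 0.0116), and Ppp1r12a, the targeting subunit of myosin phosphatase, by 0.13 and 0.27 (adjusted p 0.0345 and 0.000134). Synpo2, an actin-bundling protein of smooth muscle, fell by 0.64 with shRNF185.1 (adjusted p 0.0369), a call that DESeq2 did not make. The 5 genes not tested, Myh11, Des, Itga8, Ppp1r14a and Mylk4, had at most 11 counts in any library.

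Of 12 non-muscle and striated relatives of the 10 genes, 10 were tested. With shRNF185.1, 1 rose, Tpm4, a non-muscle tropomyosin, by 0.18 (adjusted p 0.028). With shRNF185.3, 0 passed the edgeR test, with 0 higher and 1 lower at an unadjusted p under 0.05. DESeq2 called 1 lower and limma 0. Their median log2 fold changes were 0.07 and 0.03, against -0.02 over all genes. The skeletal muscle actin Acta1 was at 0.294 ± 0.222 CPM in control, with log2 fold changes of 0.63 and 0.70 that did not pass (adjusted p 0.305 and 0.252), and the cardiac actin Actc1 had at most 2 counts.

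Among 14 stress fibre and focal adhesion genes, all tested, 7 rose with shRNF185.1 and 6 with shRNF185.3, and 0 fell with either (0 also at an unadjusted p, by DESeq2 and by limma), with medians of 0.21 and 0.16, where 14.6% and 14.2% of all genes were called higher. Tgfb1i1, also called Hic-5, a focal adhesion adaptor known from myofibroblasts, rose by 0.72 and 0.84 on the log2 scale (adjusted p 0.000193 and 4.34e-05), from 8.78 ± 1.74 to 14.5 ± 1.55 and 15.7 ± 2.18 CPM. Palld, palladin, which crosslinks actin, rose by 0.48 and 0.50 (adjusted p 0.000109 and 7.77e-05), and Zyx, zyxin of focal adhesions, by 0.32 and 0.36 (adjusted p 0.000523 and 0.000178).

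The factors known to act on these promoters were measured last. Srf was at 106 ± 13.8 CPM in control, with log2 fold changes of 0.04 and -0.02 (adjusted p 0.79 and 0.883). Of the 11 factors and cofactors in the list, 10 were tested, and 2 rose and 2 fell with each hairpin, near the all-gene shares of 14.6% and 14.3% (shRNF185.1) and 14.2% and 13.1% (shRNF185.3). Fhl2, a LIM cofactor, rose with both, by 0.30 and 0.25 (adjusted p 0.016 and 0.0445). Mrtfb, a myocardin-related coactivator, rose with shRNF185.1 by 0.27 (adjusted p 0.000867), and Mrtfa with shRNF185.3 by 0.19 (adjusted p 0.00388). Klf5, a zinc finger factor, fell by 0.51 and 0.69 (adjusted p 0.00229 and 0.000204), and Elk4, a partner of SRF in other target genes, fell by 0.22 and 0.52 (adjusted p 0.031 and 4.24e-05). The median log2 fold changes of this list were 0.00 and 0.03.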

How the data were processed

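Polyadenylated RNA of 18 MPC3 libraries was sequenced as single-end 75-base reads, per the labels' protocols, with a directional kit. The submitters' processing notes name cutadapt 2.3, STAR 2.7.0d, RSEM 1.3.1 and mm10. The authors deposited expected counts and a CPM signal, both named for ComBat-Seq batch adjustment; whether the adjustment was told the groups is not given in the sources used here. Of the deposited estimated counts 0.466% are not whole, and they were rounded, where the design had assumed whole counts. The deposited CPM signal sums to 969986 to 1026394 per library.

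Genes passing filterByExpr (minimum count 10) were tested in edgeR 4.0.16 (R 4.3.3) by quasi-likelihood F tests with TMM scaling, all 18 libraries and no covariate, with Benjamini-Hochberg adjustment over 14309 genes. Fold changes, intervals and standard errors come from this fit, and the script was tested on simulated data. Symbols matched 99.1% of identifiers. Positions and exonic lengths are from GENCODE M21 (GRCm38), and promoters from RefSeq (GRCm38.p6). DESeq2 1.42.0, limma 3.58.1 on log2(CPM + 1), other scalings, a GC and length offset, blocks and left-out libraries were alternatives. A floor of 3 counts corresponds to 0.0692 to 0.136 CPM and covers counting error only.

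The members and lists were chosen with earlier results of these data known. The named genes are the 10 members, Rnf185, up to 3 genes per list and direction called with both hairpins, and the 5 genes most like Acta2. Other genes named, among them marker genes, relatives and factors, were chosen after their values were seen. A further gene list is not reported here.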

Additional observations from a re-analysis of the deposited data

Results flagged for a closer look

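In 30 groups of 6 values (10 genes and 3 groups), 2 held a library far from the rest by Dixon's criterion, where chance gives 1.5. Tagln in shRNF185.3 replicate 5 was at 0.17 log2 CPM, with the next library at 1.12; without it the rise with shRNF185.3 was 0.90 (edgeR adjusted p 0.00984). Tpm2 in control replicate 5 was at 4.58 log2 CPM, with the next library at 5.27; without it the rise with shRNF185.3 was 0.39 (edgeR adjusted p 0.0197).

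Mylk differed between the hairpins by a direct test, at 0.58 on the log2 scale. The effect of shRNF185.3 differed between batches for Acta2 (edgeR interaction adjusted p 0.0473) and Actg2 (adjusted p 0.0411).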

How the results depend on the processing

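Of 1050 values of single genes under alternatives, 978 kept their direction and their side of the threshold, 31 lost the threshold, 26 gained it and 15 changed sign. Every sign change was of a gene that was not called: Cald1 with shRNF185.3 (0.01 with library size alone, 0.09 without batch 3), Cald1 without batch 3 with shRNF185.1 (0.06) and for both hairpins averaged (0.07), Mylk (-0.10) and Tpm2 (-0.02) with shRNF185.1 without batch 3, Tpm1 with shRNF185.1 (-0.01 with the GC and length offset, -0.01 with this offset and the replicate block, -0.03 without batch 2), Myl9 between the hairpins (-0.02 without batch 2). Leaving out single libraries turned Cald1 with shRNF185.3 (-0.05 to 0.03), Cald1 for the mean (-0.07 to 0.01) and Mylk with shRNF185.1 (-0.01 to 0.18). Counts of the 10 genes ranged from 3 to 5 with shRNF185.1, 6 to 8 with shRNF185.3, 6 to 8 for the mean and 1 to 3 between the hairpins when single libraries were left out. Without batch 3 the count with shRNF185.1 was 5. Without batches 1 and 2 the counts were 3 and 4 with shRNF185.3 and 3 and 4 for the mean. Between the hairpins, where the count was 1, it was 2 with the replicate block, 2 with the block and the offset (chosen after seeing the data), 2 with limma, 4 with only the compared groups, 3 without batch 3, and 0 in edgeR without batch 1 or batch 2 (1 each at an unadjusted p under 0.05). The cause was not tested. With the replicate block the counts against control were 3, 8 and 8 for shRNF185.1, shRNF185.3 and the mean, and Tagln passed for the mean (0.57, adjusted p 0.0275). Same-numbered libraries correlated at a mean of -0.0144 (-0.628 to 0.705 over 18 pairs), against -0.434 (-0.779 to 0.103) for other numbers of the same batch and 0.111 for other batches. The mean of same-numbered libraries was thus above that of other numbers of the same batch and below that of other batches. The values were adjusted for batch, which can lower correlations within a batch, so this comparison cannot settle whether the numbers are pairs. Not every same-numbered pair was above 0.1, and the numbers were not taken as pairs in the main fit. Over all genes, calls numbered 4141, 3906, 4701 and 2098, and without batch 1 2207, 2120, 2672 and 753. Without batch 2 the last was 1208. With the batch as a covariate they numbered 3559, 3260, 4031 and 1631, and of the 10 genes 3, 6, 7 and 1 were called. With the GC and length offset 43.8%, 36.9%, 37.9% and 42.6% of calls were higher, against 50.6%, 51.8%, 48.9% and 52.7%. Without batch 1 the last was 62.4%.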
